A study of Sus scrofa with 13 samples.

Results

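Transcripts of 66 genes for matrix proteases, cathepsins and protease inhibitors were followed in biceps femoris, a muscle of the thigh, of dystrophin-deficient and wild-type pigs. The genes were chosen by symbol alone: MMP, ADAM or TIMP followed by a digit, ADAMTS, SERPIN, or CTS followed by 1 letter. Each gene was read from 1 probe set, the brightest by its mean on the 13 arrays among those annotated with that symbol only. This gave 9 matrix metalloproteinases (MMP), 3 tissue inhibitors of metalloproteinases (TIMP), 14 ADAM genes, 15 ADAMTS genes with the ADAMTS-like ones, 9 cathepsins and 16 serpins, 66 of the 10283 named genes on the array. MMP9, CTSB, CTSD, SERPINE2 and ADAMTS1 had no such probe set and were not analysed here. For ADAMTS5 and SERPINA11 the annotation gives the symbol 2 times over, and such entries were not counted as carrying 1 symbol. Both genes fit the choice by symbol, are not among the 66, and are described with their families.

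The study asked how muscle of pigs lacking exon 52 of DMD, the dystrophin gene, differs from normal muscle shortly after birth and at a later age. The groups were 3 DMD KO and 3 wild-type (WT) pigs at 3 months, and 4 DMD KO and 3 WT piglets at 2 days, all German Landrace, with 1 expression array per animal. The knockout animals came from nuclear transfer with primary kidney cells that carried a modified bacterial artificial chromosome without exon 52. Their muscle was taken at necropsy directly after their own death, whereas WT animals were euthanised at matching ages. Genotype, cloning and manner of death therefore cannot be told apart in any genotype difference given here.

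As background, cathepsins are mostly acid hydrolases of the lysosome that break down proteins taken up or recycled by a cell, and macrophages are rich in several of them. MMPs, ADAMs and ADAMTS enzymes are zinc metalloproteases: MMPs and ADAMTS enzymes cut collagens, proteoglycans and other matrix proteins, whereas many ADAMs shed membrane proteins from the cell surface. TIMPs block metalloproteases, and most serpins trap serine proteases of the complement, clotting and inflammatory cascades. In dystrophic muscle, fibre breakdown, invading macrophages and scar formation bring these systems together.

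Levels are the deposited values, read as log2 intensities, and differences are on that log2 scale. A gene is said to have risen or fallen, or to be called, where limma's moderated test passed an adjusted p of 0.05 over all 21893 probe sets. Array medians lay between 7.32 and 7.38 and the 25th percentiles between 6.53 and 6.61, and 16 of the 66 genes had a mean below the lowest of these quartiles and are termed dim. No fold is given where the lower group was dim. Skeletal muscle defining genes (7 measured of 14 listed) had a mean level of 11.29 to 11.44 in DMD KO and 11.56 to 11.73 in WT at 3 months, without overlap, and of 10.93 to 11.21 in DMD KO and 10.98 to 11.24 in WT at 2 days. DMD itself, on its brighter probe set, read 11.53 to 11.84 in DMD KO and 11.81 to 12.01 in WT at 3 months, and 12.08 to 12.30 in DMD KO and 11.53 to 12.38 in WT at 2 days. It was not called in either genotype comparison on either of its probe sets. The sources used here do not place these sets relative to exon 52, so the gene does not check the labels. WT replicate 3 at 2 days correlated least with the other arrays (mean r = 0.918), followed by DMD KO replicate 3 at 3 months (0.943). In whole muscle, fewer cells of a type and less RNA per cell cannot be told apart.

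At 3 months the called differences between genotypes among the 66 genes were all higher in DMD KO. Of the 66 genes, 17 rose in DMD KO muscle, which is 25.8% of them, and limma called 0 lower (22 higher and 4 lower at an unadjusted p under 0.05). Over all probe sets, 5.98% were called at this age, 4.62% higher and 1.36% lower, and 7.36% of the 10283 named genes, each read from its brightest probe set, were called. At limma's unadjusted p under 0.05, 2691 of the 21893 probe sets were higher and 1470 lower. Cathepsins supplied 7 of the 17, and the remainder were MMP2, MMP19, TIMP1, TIMP2, ADAM9, ADAM17, ADAM28, ADAMTS6, ADAMTS12 and SERPING1. The median difference of all 66 genes was -0.01, against -0.05 over all probe sets, whereas that of the cathepsins was 1.33. Without DMD KO replicate 3 the count at 3 months was 10 (15.2%, against 3.21% of all probe sets). Without WT replicate 3 it was 11 (16.7%, against 3.31% of all probe sets). A fit on the 3-month groups alone kept 11 of the 17 calls and ended those of CTSA, CTSC, MMP19, TIMP1, TIMP2 and ADAMTS12 (adjusted p = 0.118, 0.0627, 0.103, 0.0727, 0.144 and 0.0793). That fit also called the dim MMP27 lower in DMD KO (-0.56, adjusted p = 0.0318), and one with array weights called SERPINA6 lower (-0.38, adjusted p = 0.0385).

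At 2 days the picture was mixed. CTSV and CTSL rose and MMP16, MMP19, CTSO and SERPINF1 fell in DMD KO piglets, in all 6 of 66 genes or 9.09%, close to the 9.93% of all probe sets called at that age (7.09% higher and 2.85% lower) and below the 11.4% of named genes. The median difference was -0.06 over the 66 genes and -0.02 over all probe sets. The plot of genotype differences by family sets both ages side by side.

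**Figure D1:**
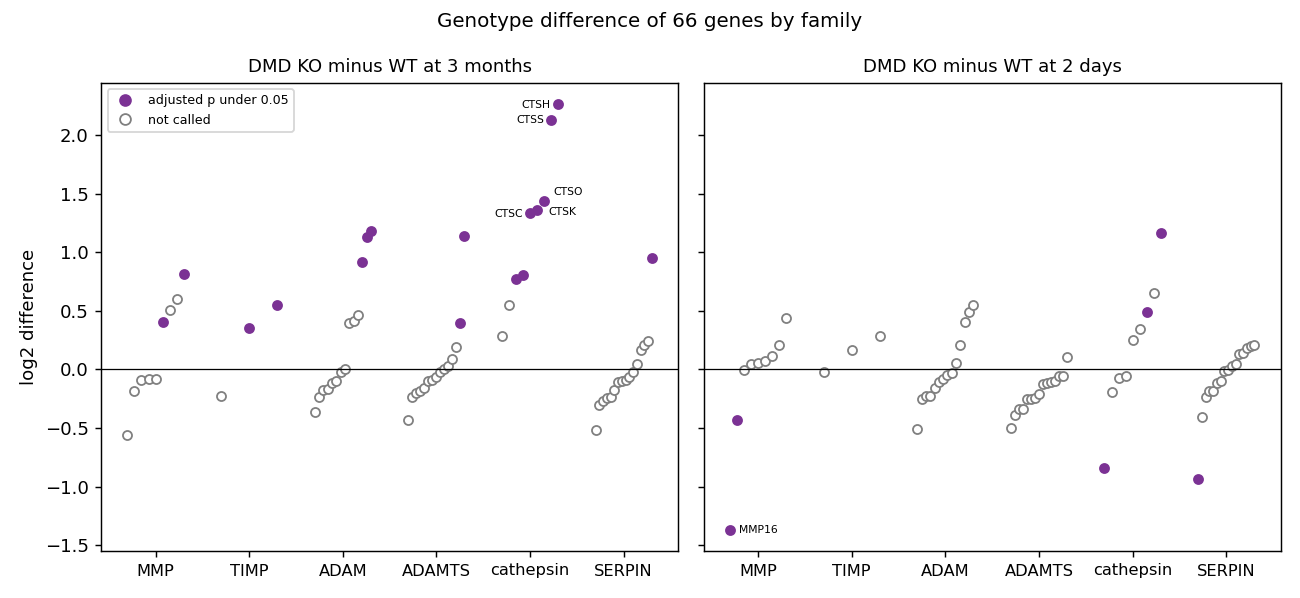
Genotype difference (DMD KO minus WT, log2) of each of the 66 genes at 3 months (left) and 2 days (right), ordered by value within its family. Filled points passed the test: 7 of 9 cathepsins lie above 0 and are called at 3 months, and called genes lie on both sides of 0 at 2 days.

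CTSH, a lysosomal aminopeptidase, had the largest rise of the 66 genes at 3 months. Its levels were 9.27, 9.44 and 10.11 in DMD KO muscle, against 7.76, 7.17 and 7.10 in WT muscle. Every DMD KO value lay above every WT value, and the gene was 4.81-fold higher in DMD KO (2.27 ± 0.22, SE, adjusted p = 7.3e-05). CTSS, the cysteine protease with which antigen-presenting cells trim the invariant chain of MHC class II, read 10.60, 10.69 and 11.11 in DMD KO at 3 months, against 9.14, 8.95 and 7.92 in WT. The groups were again apart, with WT replicate 3 the lowest, and CTSS was 4.38-fold higher in DMD KO (2.13 ± 0.27, adjusted p = 0.000546).

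CTSO, a papain-family cysteine protease, stood at 8.06, 8.28 and 8.31 in DMD KO muscle at 3 months, against 7.07, 6.83 and 6.41 in WT. The DMD KO values were all higher, by 2.72-fold on average (1.44 ± 0.17, adjusted p = 0.000381). CTSK, known as the collagenase of bone-resorbing osteoclasts, had 9.37, 9.50 and 9.74 in DMD KO, against 8.69, 8.0 and 7.83 in WT. The groups did not overlap, and the rise was 2.58-fold (1.37 ± 0.23, adjusted p = 0.00316). CTSC, the dipeptidyl peptidase that activates granule serine proteases of leukocytes, reached 9.08, 9.66 and 10.18 in DMD KO and 8.78, 8.27 and 7.88 in WT. Both groups spread over about 1 log2 unit without overlapping, at a 2.52-fold rise (1.33 ± 0.32, adjusted p = 0.0287).

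CTSA, the carboxypeptidase that protects other lysosomal enzymes from breakdown, was at 8.39, 8.50 and 9.16 in DMD KO muscle at 3 months, against 8.17, 7.55 and 7.92 in WT. DMD KO replicate 3 stood well above its group, the groups did not overlap, and the rise was 1.75-fold (0.81 ± 0.19, adjusted p = 0.0276). CTSL, a broad lysosomal endopeptidase, read 7.82, 7.45 and 7.97 in DMD KO, against 7.15, 6.92 and 6.85 in WT, without overlap and 1.71-fold higher in DMD KO (0.78 ± 0.15, adjusted p = 0.00835). CTSV, its close relative, had 9.00, 8.96 and 9.36 in DMD KO and 8.90, 8.36 and 8.40 in WT, a difference of 0.55 that was not called (adjusted p = 0.122). CTSZ, a carboxypeptidase also called cathepsin X, read 7.95, 7.88 and 8.02 in DMD KO, against 7.58, 7.85 and 7.55 in WT. Its difference of 0.29 was not called either (adjusted p = 0.38), although the groups of all 9 cathepsins, these included, did not overlap, as was the case, in the higher direction, for 12.9% of all probe sets. CTSA was no longer called without DMD KO replicate 3 or WT replicate 2 or 3 (adjusted p from 0.0776 to 0.12), nor CTSC without DMD KO replicate 2 or 3 or WT replicate 2 or 3 (0.0814 to 0.14).

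DMD KO replicate 3 had the highest level of all 9 cathepsins within its group, and WT replicate 1 had the highest of 8 of the 9 among WT animals at 3 months, CTSZ being the exception. These arrays also had the highest 95th percentile of levels over all probe sets in their groups. It was 9.83 against 9.64 and 9.67 in DMD KO, and 9.74 against 9.48 and 9.54 in WT. The part of this wider range in their cathepsin and marker levels was not tested. The same arrays carried the highest mean level of macrophage markers (12 measured of 17 listed) in their groups, 8.78 in DMD KO replicate 3 and 7.49 in WT replicate 1. Across the groups at 3 months that mean ran from 8.23 to 8.78 in DMD KO and from 7.11 to 7.49 in WT. Limma called 8 of the 12 markers higher and none lower (8 and 0 at an unadjusted p under 0.05), against 4.62% and 1.36% of all probe sets. AIF1, MSR1 and LYZ were dim in WT, while none of the 12 was dim in DMD KO. Of the 7 skeletal muscle defining genes, 6 had a negative difference at that age, 5 of them without overlap. Over all probe sets, 2219 of 21893 were lower without overlap. In that list 1 gene was higher, by 0.34, without overlap. Limma called only TNNC2, a troponin of fast fibres, which fell (-0.61, adjusted p = 0.0199), with 1 higher and 3 lower at an unadjusted p under 0.05. The part of any of these lists in the differences of the 66 genes at 3 months was not tested.

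**Figure D2:**
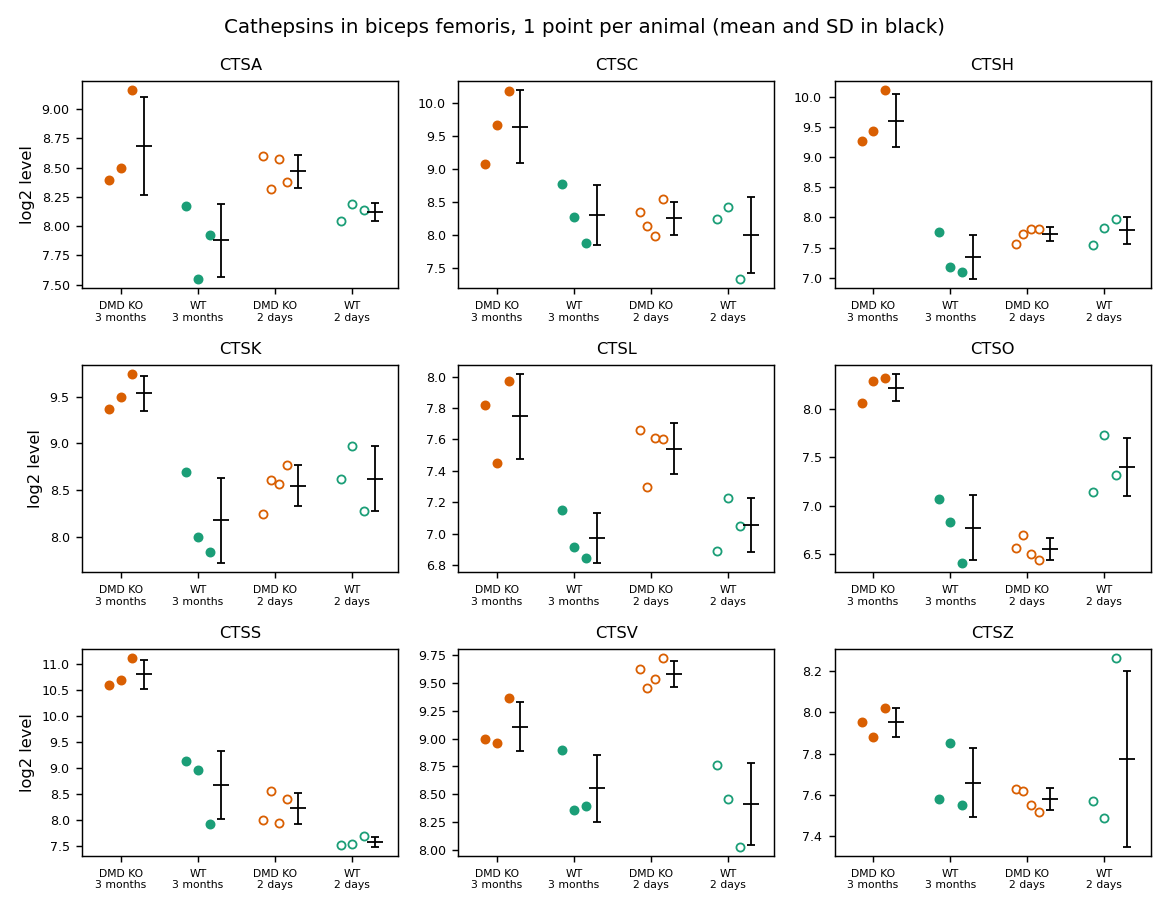
Log2 level of the 9 cathepsins, with 1 point per animal, filled at 3 months and open at 2 days, DMD KO in orange and WT in green, and the mean and SD of each group in black. At 3 months every DMD KO point lies above every WT point for all 9 genes, while at 2 days all points of CTSO lie lower in DMD KO and all of CTSV, CTSL, CTSS and CTSA lie higher, the last 2 without a call.

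At 2 days 3 cathepsins were called. CTSV read 9.62, 9.45, 9.53 and 9.72 in DMD KO piglets, against 8.76, 8.46 and 8.03 in WT. The DMD KO values were close together and all higher, by 2.24-fold (1.17 ± 0.18, adjusted p = 0.0021), and a further CTSV probe set gave 0.95 (adjusted p = 0.00143). CTSL had 7.66, 7.30, 7.61 and 7.60 in DMD KO and 6.89, 7.23 and 7.05 in WT, a rise of 0.49 ± 0.14 (adjusted p = 0.0457) between groups that did not overlap. Both CTSL probe sets of the table hold the same values, so they count as 1 measurement. Whether probes of CTSL and CTSV tell these related transcripts apart was not tested. CTSO went the other way, at 6.56, 6.70, 6.50 and 6.44 in DMD KO piglets, against 7.14, 7.73 and 7.32 in WT. Its DMD KO mean of 6.55 lay at the level of the array quartiles, and the gene fell by 0.84 ± 0.16 (adjusted p = 0.00789). The CTSL call was lost in 8 of the 13 fits that left out 1 array (adjusted p from 0.0556 to 0.127) and in the fit on the 2-day groups alone (0.0605).

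The other cathepsins were not called at 2 days. CTSS had 8.0, 8.55, 7.94 and 8.41 in DMD KO piglets, against 7.51, 7.53 and 7.68 in WT, a difference of 0.65 between groups that did not overlap (adjusted p = 0.123). CTSA read 8.60, 8.32, 8.57 and 8.38 in DMD KO and 8.04, 8.19 and 8.14 in WT, also without overlap, a difference of 0.35 (adjusted p = 0.233). Over all probe sets, 3083 of 21893 were higher in DMD KO without overlap at 2 days. CTSH, CTSK, CTSC and CTSZ overlapped between genotypes, with differences from -0.19 for CTSZ to 0.25 for CTSC. For CTSH the levels were 7.56, 7.72, 7.81 and 7.81 in DMD KO piglets and 7.54, 7.83 and 7.98 in WT, so its genotype difference at 2 days was -0.06 with a 95% interval from -0.50 to 0.39. CTSK was at 8.24, 8.61, 8.56 and 8.77 in DMD KO, against 8.62, 8.97 and 8.27 in WT, a difference of -0.07. The macrophage markers averaged 7.36 to 7.42 in DMD KO piglets and 7.18 to 7.38 in WT piglets, and limma called none of the 12 at this age (2 higher and 0 lower at an unadjusted p under 0.05). DMD KO replicate 2 and WT replicate 3 had the highest of these averages. Within their groups these arrays had the highest level of 2 and 3 of the 9 cathepsins.

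The difference between the genotype differences, at 3 months minus at 2 days, was tested as an interaction. It was called for 11 of the 66 genes (16.7%), all positive, against 5.05% of all probe sets, 3.06% positive and 1.99% negative, and 6.17% of named genes. At an unadjusted p under 0.05 it was positive for 22 and negative for 4 of the 66, against 1683 and 1826 of the 21893 probe sets. The called cathepsins were CTSH (2.32 ± 0.30, adjusted p = 0.00085), CTSO (2.29 ± 0.24, adjusted p = 0.00021), CTSS (1.48 ± 0.37, adjusted p = 0.0401) and CTSK (1.44 ± 0.31, adjusted p = 0.0183). For CTSO this joins a fall at 2 days to a rise at 3 months, a pattern it shared with MMP19 among the 66 genes and with 0.443% of all probe sets. CTSL was called in the same direction at both ages, as were 0.831% of all probe sets, and its interaction of 0.29 was not called (adjusted p = 0.605). CTSV, called only at 2 days, had an interaction of -0.61 that was not called (adjusted p = 0.257). The CTSS interaction was lost in 9 of the 13 fits without 1 array (adjusted p from 0.0559 to 0.098).

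**Figure D3:**
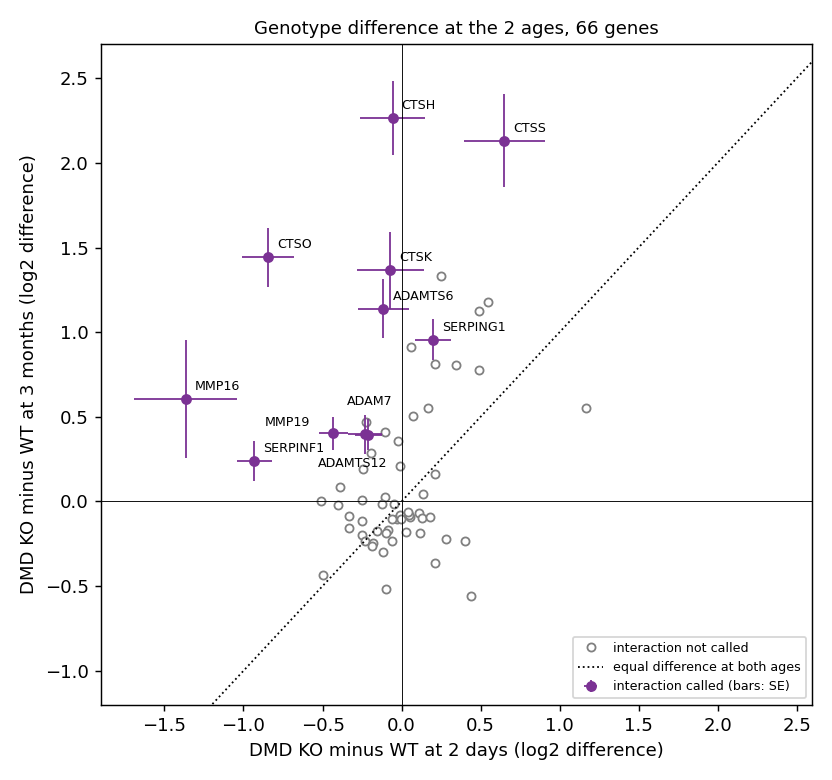
Genotype difference (DMD KO minus WT, log2) at 3 months against that at 2 days for the 66 genes, filled with SE bars where the interaction was called. The 11 filled points all lie above the dotted line of equal difference, and those of CTSO, MMP16, MMP19 and SERPINF1, which fell in DMD KO at 2 days, lie farthest to the left among them.

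Among the MMPs, MMP2, the gelatinase that cuts denatured collagen and basement membrane collagen, rose in DMD KO muscle at 3 months. Its levels were 8.79, 9.12 and 8.82 in DMD KO, against 8.25, 8.12 and 7.92 in WT. The groups were apart and the rise was 1.76-fold (0.81 ± 0.14, adjusted p = 0.00351). At 2 days MMP2 overlapped, with 8.66, 8.66, 8.71 and 8.86 in DMD KO and 8.79, 8.40 and 8.34 in WT (0.21, adjusted p = 0.303). MMP14, the membrane-bound enzyme that activates pro-MMP2, read 7.92, 8.05 and 7.90 in DMD KO at 3 months, against 7.17, 7.57 and 7.62 in WT. All DMD KO values were higher, but the difference of 0.51 missed the threshold (adjusted p = 0.0658). At 2 days MMP14 differed by 0.07 (adjusted p = 0.765). The MMP2 interaction was 0.61 and was not called (adjusted p = 0.0975).

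MMP16, another membrane-bound metalloproteinase, and MMP19, a secreted one, were the MMPs that fell in DMD KO piglets. MMP16 read 7.04, 7.19, 6.71 and 6.87 in DMD KO at 2 days, against 8.66, 8.72 and 7.58 in WT. All DMD KO values were lower although WT replicate 3 stood below its group, and the gene was 2.58-fold lower in DMD KO (-1.37 ± 0.32, adjusted p = 0.0211). At 3 months MMP16 had 8.21, 8.71 and 8.03 in DMD KO and 7.91, 6.95 and 8.28 in WT. Those groups overlapped (0.60, adjusted p = 0.374), and the interaction was 1.97 ± 0.47 (adjusted p = 0.0312). MMP19 read 7.53, 7.30, 7.38 and 7.35 in DMD KO at 2 days, against 7.75, 7.84 and 7.87 in WT, all lower in DMD KO (-0.43 ± 0.09, adjusted p = 0.012). At 3 months it read 7.83, 7.72 and 7.92 in DMD KO, against 7.36, 7.57 and 7.33 in WT. At that age every DMD KO value was higher (0.40 ± 0.10, adjusted p = 0.0291), and the interaction was 0.83 ± 0.13 (adjusted p = 0.00356).

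The MMP16 call at 2 days ended without DMD KO replicate 3, DMD KO replicate 4 or WT replicate 1 of that age (adjusted p from 0.0569 to 0.0671), and its interaction ended in 8 of the 13 fits (0.0554 to 0.0846). The MMP19 call at 3 months ended without DMD KO replicate 1 or 3 or WT replicate 1 or 3 (0.072 to 0.126). Of the remaining MMPs, MMP11, a stromal member first found in tumours, differed by -0.09 at 3 months and 0.05 at 2 days. The interstitial collagenase MMP1, matrilysin MMP7, macrophage metalloelastase MMP12 and MMP27 were dim. MMP12, whose name comes from macrophages, stayed between 4.42 and 4.90 on all 13 arrays.

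TIMP1 and TIMP2 rose in DMD KO muscle at 3 months and TIMP3 was not called. TIMP1, a secreted inhibitor of most MMPs, had 8.19, 8.37 and 8.53 in DMD KO, against 7.65, 7.79 and 8.0 in WT. The groups were apart, at 1.47-fold (0.55 ± 0.11, adjusted p = 0.0114). TIMP2, which both inhibits MMP2 and takes part in its activation by MMP14, read 8.30, 8.32 and 8.52 in DMD KO and 7.92, 8.14 and 8.01 in WT. The rise was 1.28-fold, with groups that did not overlap (0.36 ± 0.09, adjusted p = 0.0397). TIMP3, the matrix-bound inhibitor that also acts on ADAM17 and ADAMTS enzymes, had 9.06, 8.73 and 8.46 in DMD KO, against 9.19, 8.82 and 8.90 in WT. Its values overlapped, with a difference of -0.22 (adjusted p = 0.54).

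At 2 days limma called none of the TIMPs, and none passed at an unadjusted p under 0.05 (0 higher and 0 lower). TIMP1 had 8.06, 8.08, 8.16 and 8.11 in DMD KO piglets, against 7.97, 7.82 and 8.01 in WT, all higher in DMD KO but by 0.17 only (adjusted p = 0.312). TIMP2 differed by -0.02 and TIMP3 by 0.28, both with overlap. No TIMP had a called interaction, with 0.38 for TIMP1, 0.38 for TIMP2 and -0.51 for TIMP3 (2 higher and 0 lower at an unadjusted p under 0.05). The TIMP1 call at 3 months also ended without DMD KO replicate 3 (adjusted p = 0.0568). The TIMP2 call ended in 10 of the 13 fits without 1 array (0.0551 to 0.171), after quantile normalization (0.131), after median centring (0.0529) and with trend and robust settings (0.0538).

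**Figure D4:**
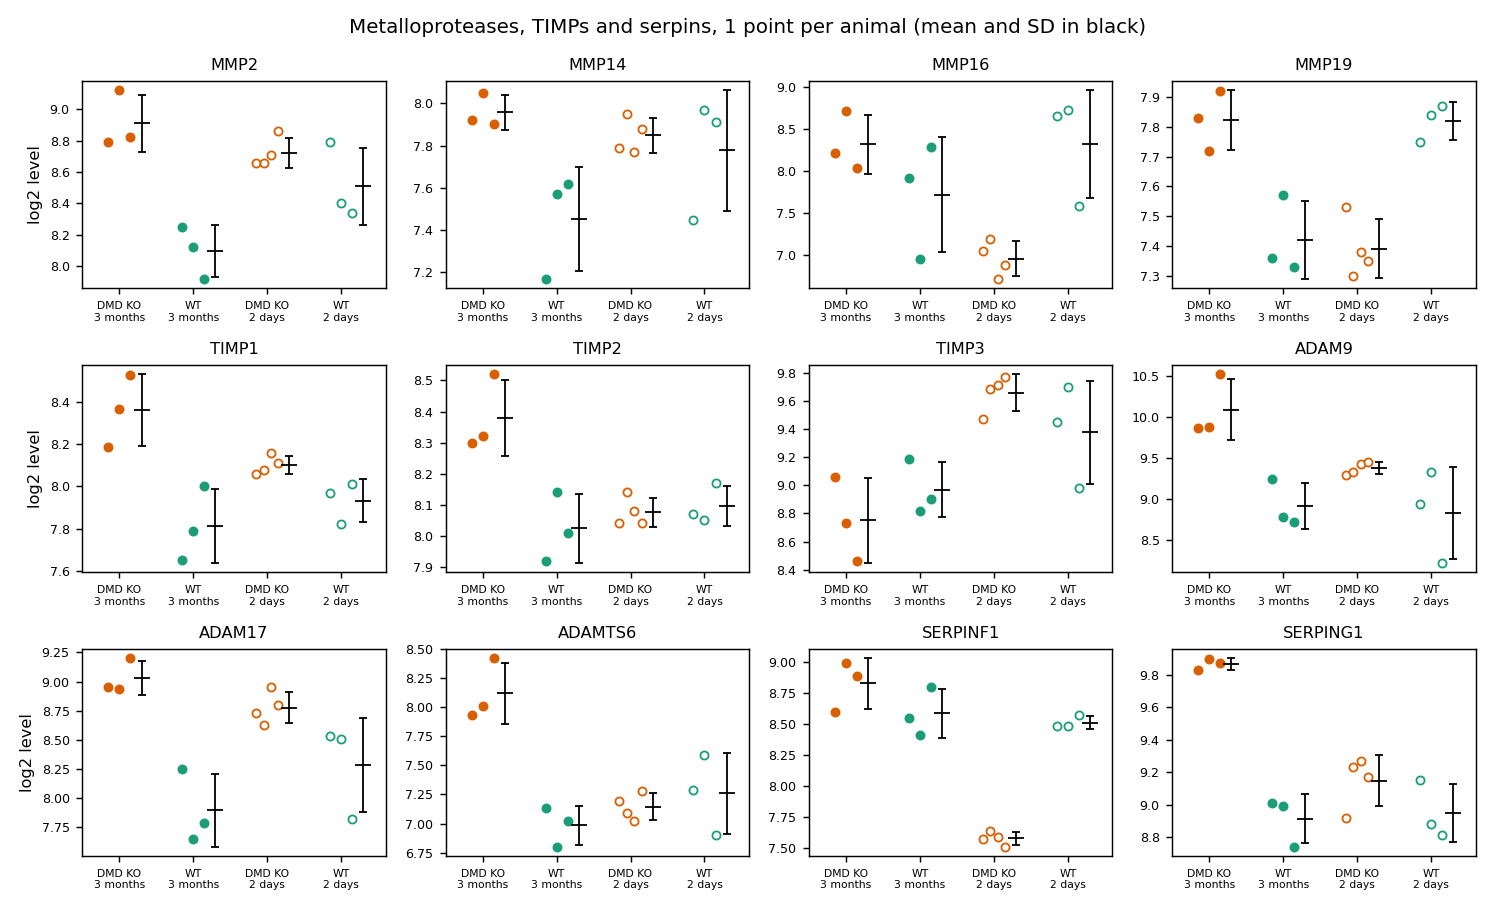
Log2 level of 12 metalloprotease, TIMP and serpin genes, with 1 point per animal, filled at 3 months and open at 2 days, DMD KO in orange and WT in green, and the mean and SD of each group in black. MMP2, TIMP1, ADAM17, ADAMTS6 and SERPING1 are higher in every DMD KO animal at 3 months, and MMP16, MMP19 and SERPINF1 are lower in every DMD KO animal at 2 days.

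Of the 14 ADAM genes, ADAM9, ADAM17 and ADAM28 rose in DMD KO muscle at 3 months. ADAM9, a membrane sheddase, read 9.87, 9.88 and 10.52 in DMD KO, against 9.24, 8.78 and 8.72 in WT. All DMD KO values were higher, 2.26-fold on average (1.18 ± 0.25, adjusted p = 0.0149). ADAM17, the enzyme that releases tumour necrosis factor from the cell surface, had 8.95, 8.94 and 9.20 in DMD KO and 8.25, 7.65 and 7.79 in WT. The groups were apart and the rise was 2.18-fold (1.13 ± 0.19, adjusted p = 0.0041). ADAM28, known from lymphocytes, was dim in both groups, with 5.93, 5.71 and 6.50 in DMD KO, against 5.26, 5.04 and 5.09 in WT (0.91 ± 0.17, adjusted p = 0.00643), all DMD KO values being higher. The ADAM9 call ended without DMD KO replicate 3 or WT replicate 2 or 3 of that age (adjusted p from 0.0628 to 0.0761).

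At 2 days limma called none of the 14 ADAM genes (2 higher and 3 lower at an unadjusted p under 0.05). ADAM17 had 8.73, 8.63, 8.95 and 8.80 in DMD KO piglets, against 8.53, 8.51 and 7.82 in WT, higher in every DMD KO piglet (0.49, adjusted p = 0.108). ADAM9 had 9.29, 9.33, 9.43 and 9.45 in DMD KO and 8.94, 9.33 and 8.22 in WT, with overlap (0.55, adjusted p = 0.154). Both WT ranges were widened by WT replicate 3, the array that stood farthest from the others. The interactions of ADAM9 and ADAM17, 0.63 and 0.64, were not called (adjusted p = 0.43 and 0.247).

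ADAM12, a fusion-related protein of regenerating muscle, read 7.65, 7.56 and 7.81 in DMD KO at 3 months, against 7.40, 6.90 and 7.32 in WT. The DMD KO values were all higher, but the difference of 0.47 was not called (adjusted p = 0.0988), nor was that of -0.23 at 2 days (adjusted p = 0.305). ADAM10, the main sheddase of Notch receptors, was dim on all arrays, between 3.51 and 4.56, with differences of -0.23 at 3 months and 0.40 at 2 days (adjusted p = 0.55 and 0.188). ADAM7, known from the epididymis, was dim too and was called in the interaction alone (0.63 ± 0.16, adjusted p = 0.036). It read 6.54, 6.28 and 6.38 in DMD KO at 3 months, against 5.93, 5.96 and 6.13 in WT (0.40, adjusted p = 0.0627). At 2 days it had 6.30, 6.13, 6.30 and 6.05 in DMD KO and 6.35, 6.60 and 6.33 in WT (-0.23, adjusted p = 0.179). Its groups did not overlap at either age, in opposite directions. A further ADAM7 probe set gave an interaction of 0.24 (adjusted p = 0.53), and the call ended in 7 of the 13 fits without 1 array (0.0654 to 0.09). ADAM11, ADAM15, ADAM19, ADAM22, ADAM23, ADAM29, ADAM30 and ADAM33 were called in no genotype comparison, with differences from -0.36 (ADAM22) to 0.41 (ADAM19) at 3 months.

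ADAMTS6, a secreted metalloprotease linked to fibrillin microfibrils, was the ADAMTS gene with the largest difference at 3 months. It read 7.93, 8.01 and 8.42 in DMD KO, against 7.13, 6.80 and 7.02 in WT. The groups were apart and the rise was 2.20-fold (1.14 ± 0.17, adjusted p = 0.00184). At 2 days it had 7.19, 7.09, 7.02 and 7.28 in DMD KO and 7.29, 7.59 and 6.90 in WT, with overlap (-0.11, adjusted p = 0.668), and the interaction was 1.25 ± 0.24 (adjusted p = 0.00885). ADAMTS12, which cuts cartilage oligomeric matrix protein, had 8.0, 7.79 and 7.94 in DMD KO at 3 months, against 7.49, 7.51 and 7.55 in WT. All DMD KO values were higher (0.39 ± 0.09, adjusted p = 0.0213). At 2 days ADAMTS12 had 7.71, 7.73, 7.64 and 7.82 in DMD KO and 7.96, 8.02 and 7.82 in WT, a difference of -0.21 that was not called (adjusted p = 0.13), with an interaction of 0.60 (adjusted p = 0.014). The ADAMTS12 call at 3 months ended without DMD KO replicate 1 or 3 or WT replicate 2 or 3 (adjusted p from 0.0618 to 0.0824).

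The other 13 ADAMTS and ADAMTS-like genes were called at neither age. ADAMTS2, the main procollagen N-proteinase, differed by 0.01 at 3 months (adjusted p = 0.981) and -0.25 at 2 days (adjusted p = 0.235). Its relatives ADAMTS3 and ADAMTS14 differed by -0.16 and 0.03 at 3 months. ADAMTS4, an aggrecanase, differed by -0.23 at 3 months (adjusted p = 0.331) and -0.06 at 2 days (adjusted p = 0.765). ADAMTS20, known for cutting versican, had the most negative difference of the family at both ages, -0.43 at 3 months and -0.50 at 2 days, with overlap each time. ADAMTS7, ADAMTS8, ADAMTS9, ADAMTS16 and ADAMTS19 and the ADAMTS-like genes ADAMTSL3, ADAMTSL4 and ADAMTSL5, which lack the protease domain, made up the rest. At 2 days the family's median difference was -0.21, and limma called none of the 15 (0 higher and 3 lower at an unadjusted p under 0.05).

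ADAMTS5, the other well-known aggrecanase, was read from the probe set whose annotation repeats its symbol. It had 7.80, 8.26, 8.22 and 8.11 in DMD KO piglets at 2 days, against 7.50, 7.38 and 7.81 in WT. The lowest DMD KO value lay just under the highest WT value, and the gene rose by 0.53 ± 0.13 (adjusted p = 0.0272). At 3 months it had 7.08, 7.34 and 7.45 in DMD KO, against 7.45, 7.42 and 7.47 in WT, a difference of -0.16 that was not called (adjusted p = 0.56). ADAMTS5 was 1.75-fold lower at 3 months than at 2 days in DMD KO, without overlap (-0.81 ± 0.13, adjusted p = 0.00216), against a difference of -0.12 in WT (adjusted p = 0.869). Its interaction of -0.69 missed the threshold (adjusted p = 0.0647).

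Among the serpins, SERPING1, the C1 inhibitor of the complement cascade, was the one that rose at 3 months. Its levels were 9.83, 9.90 and 9.87 in DMD KO, against 9.01, 8.99 and 8.74 in WT. The DMD KO values lay within 0.1 of each other and were all higher, 1.94-fold on average (0.95 ± 0.12, adjusted p = 0.000496). At 2 days it had 8.92, 9.23, 9.27 and 9.17 in DMD KO and 9.15, 8.88 and 8.81 in WT, with overlap (0.20, adjusted p = 0.268). The interaction was 0.76 ± 0.17 (adjusted p = 0.0194), and it was not called without DMD KO replicate 2 or WT replicate 3 at 3 months (adjusted p = 0.0517 and 0.0532).

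SERPINF1, the secreted anti-angiogenic factor PEDF and no protease inhibitor, fell in DMD KO piglets. It read 7.57, 7.64, 7.59 and 7.51 in DMD KO at 2 days, against 8.48, 8.48 and 8.57 in WT. Both groups were narrow and far apart, and the gene was 1.91-fold lower in DMD KO (-0.93 ± 0.11, adjusted p = 0.000643). At 3 months it read 8.60, 8.99 and 8.89 in DMD KO, against 8.55, 8.41 and 8.80 in WT, with overlap (0.24, adjusted p = 0.303), and the interaction was 1.17 ± 0.16 (adjusted p = 0.00131). SERPINH1, the collagen chaperone HSP47, had 6.71, 6.90, 6.57 and 6.98 in DMD KO piglets at 2 days, against 7.04, 7.35 and 7.19 in WT. All DMD KO values were lower, but -0.40 missed the threshold (adjusted p = 0.0526), and at 3 months SERPINH1 differed by -0.02 (adjusted p = 0.944).

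No other serpin was called at either age. SERPINA3-2, a member of the antichymotrypsin group, had the most negative value at 3 months, -0.52 (adjusted p = 0.107). Serpins known as plasma proteins of the liver differed by -0.27 for SERPINA6 (corticosteroid-binding globulin), -0.24 for SERPINA1 (alpha-1-antitrypsin) and -0.24 for SERPINA5 (protein C inhibitor). Antithrombin SERPINC1 differed by -0.09 and heparin cofactor SERPIND1 by 0.05 at 3 months. SERPINB1, an inhibitor of neutrophil elastase, differed by 0.16 and SERPINE3 by -0.18. SERPINA11, from the other probe set with a repeated symbol, whose entry lists 2 gene identifiers, differed by -0.10 at 3 months and -0.13 at 2 days (adjusted p = 0.745 and 0.587). SERPINB5, SERPINB7, SERPINB10, SERPINI1 and SERPINI2 were dim.

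With age, few of these genes moved in WT muscle and more did in DMD KO muscle. In WT, 2 of the 66 genes (3.03%) fell and limma called 0 higher (2 higher and 11 lower at an unadjusted p under 0.05), against 2.89% of all probe sets called (1.71% higher and 1.18% lower) and 3.33% of named genes. At limma's unadjusted p under 0.05, 1526 of the 21893 probe sets were higher and 1306 lower. The 2 genes called were MMP19, at 7.36, 7.57 and 7.33 at 3 months against 7.75, 7.84 and 7.87 at 2 days (-0.40, adjusted p = 0.0477), and ADAMTS12 (-0.42, adjusted p = 0.0277). Both calls depended on single arrays: MMP19 was lost in 12 of the 13 fits without 1 array (adjusted p from 0.051 to 0.174) and ADAMTS12 in 5 of them (0.0722 to 0.0808).

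In DMD KO, 13 genes were higher and 3 lower at 3 months than at 2 days, 24.2% of the 66, against 8.04% of all probe sets (4.47% higher and 3.57% lower) and 9.85% of named genes. The cathepsins were CTSS (5.97-fold, 2.58 ± 0.26, adjusted p = 6.06e-05), CTSH (3.68-fold, 1.88 ± 0.20, adjusted p = 0.000107), CTSO (1.66 ± 0.16, adjusted p = 5.82e-05), CTSC (1.39 ± 0.30, adjusted p = 0.012) and CTSK (0.99 ± 0.21, adjusted p = 0.0107). CTSS was also higher with age in WT, by 1.10 and without overlap, the largest such difference of the 66 genes, but was not called there. Of the 9 cathepsins, 3 had a difference above 0 with age in WT and 6 below. SERPINF1 rose 2.38-fold with age in DMD KO (1.25 ± 0.11, adjusted p = 3.02e-05) and SERPING1 1.65-fold (0.72 ± 0.11). MMP16 rose by 1.36, ADAMTS6 by 0.98, MMP19 by 0.43 and TIMP2 by 0.30. ADAM19, a sheddase of neuregulins called in no genotype comparison, had 8.28, 8.61 and 8.66 in DMD KO at 3 months, against 7.75, 7.73, 7.58 and 7.74 at 2 days (0.82 ± 0.12, adjusted p = 0.000729). In WT it differed by 0.31 with age (adjusted p = 0.277), and the difference between the genotypes' age changes, which is the interaction, was 0.51 (adjusted p = 0.117).

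Falls with age in DMD KO were those of TIMP3, ADAM22 and the dim MMP27. TIMP3 was 1.88-fold lower at 3 months (-0.91 ± 0.18, adjusted p = 0.00566), at 9.06, 8.73 and 8.46 at 3 months against 9.47, 9.68, 9.71 and 9.77 at 2 days, without overlap. ADAM22, a catalytically inactive member known from neurons, was 1.88-fold lower (-0.91 ± 0.20, adjusted p = 0.0131). In WT the TIMP3 values were 9.19, 8.82 and 8.90 at 3 months, against 9.45, 9.70 and 8.98 at 2 days (-0.41, adjusted p = 0.389), and the TIMP3 interaction was not called (adjusted p = 0.381). Of the 16 genes called with age in DMD KO, 15 were not called with age in WT, but for 7 of these 15 (ADAM19, ADAM22, ADAM28, CTSC, MMP27, TIMP2 and TIMP3) the interaction itself was not called. Without DMD KO replicate 3 at 3 months CTSC, CTSK and ADAM22 were not called with age (adjusted p = 0.0637, 0.0543 and 0.0633), MMP16 was lost in 4 of the 13 fits (0.0528 to 0.103) and TIMP2 in 10 (0.0576 to 0.192).

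Genes outside the 66 that act beside them were read from lists. Over all probe sets, 4.62% were called higher and 1.36% lower at 3 months, and 7.09% higher and 2.85% lower at 2 days. At limma's unadjusted p under 0.05, 2691 of the 21893 probe sets were higher and 1470 lower at 3 months. At 2 days the same counts were 3516 and 2589. Other lysosome genes (20 measured of 30 listed) had 10 called higher and none lower in DMD KO at 3 months (12 and 0 at an unadjusted p under 0.05), with a median difference of 0.46. LGMN, the lysosomal asparaginyl endopeptidase that processes cathepsins, rose by 1.63 ± 0.11 (adjusted p = 8.2e-06), the acid lipase LIPA by 2.10 and the ceramidase ASAH1 by 1.48. CD63, NPC2 and ATP6AP2 rose at both ages, and no other gene of the list was called at 2 days. The mean level of the list was 8.14 to 8.37 in DMD KO and 7.62 to 7.80 in WT at 3 months, and 7.77 to 7.88 in DMD KO and 7.66 to 7.78 in WT at 2 days.

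Of the plasminogen activation genes (8 measured of 13), PLAU, the urokinase activator, rose at 3 months by 2.22 ± 0.19 (adjusted p = 3e-05) and ANXA2, a cell surface receptor for plasminogen, by 2.07 ± 0.19 (adjusted p = 5.35e-05). Neither was called at 2 days. Of 16 measured other inhibitors, cystatin C (CST3), the secreted inhibitor of cysteine cathepsins, rose by 1.06 ± 0.17 at 3 months (adjusted p = 0.00216) and the leukocyte protease inhibitor SLPI fell by 0.66 (adjusted p = 0.00426), while at 2 days ITIH4, an inter-alpha-trypsin inhibitor heavy chain, rose by 0.85 ± 0.13 (adjusted p = 0.0021). Other proteases (18 measured of 24) had 5 called higher at 3 months, against 4.62% of all probe sets. The 5 were ADAMDEC1 (2.13, dim in WT), FAP (2.09), CAPN6 (1.40), HTRA1 (1.15) and DPP4 (0.58). At 2 days the muscle calpain CAPN3 rose by 1.38 ± 0.19 (adjusted p = 0.00125) and the secreted serine protease HTRA1 fell by 0.87 ± 0.13 (adjusted p = 0.0022). HTRA1 thus fell at 2 days and rose at 3 months, with an interaction of 2.02 (adjusted p = 0.000117).

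Of the matrix substrates of the proteases, 8 fell at 2 days and rose at 3 months in DMD KO, namely COL1A2, COL3A1, FN1, VCAN, DCN, BGN, LUM and FBN1. Over all probe sets, 0.443% were called in this way. Of 17 measured of 22, limma called 10 higher and 0 lower at 3 months (12 and 2 at an unadjusted p under 0.05), against 4.62% and 1.36% of all probe sets. FN1 differed by 1.96 ± 0.14, VCAN, the versican cut by ADAMTS enzymes, by 2.09 ± 0.31, TNC by 1.55 ± 0.17 and COL3A1 by 1.07 ± 0.11. LAMA2, the laminin chain of the muscle fibre's basement membrane, rose at both ages, by 1.36 at 3 months and 1.10 at 2 days. At 2 days 9 were called lower, against 2.85% of all probe sets, and only LAMA2 was called higher. COL1A1 differed by -2.06 ± 0.18, COL1A2 by -1.52 ± 0.11 and VCAN by -1.47 ± 0.29. Fibroblast markers (10 measured of 12) share COL1A1, COL1A2, COL3A1, DCN and LUM with the substrates. Limma called 6 of the 10 lower at 2 days and 6 higher at 3 months (7 lower and 8 higher at an unadjusted p under 0.05). The shares of all probe sets called so were 2.85% and 4.62%. The 4 called both ways, COL1A2, COL3A1, DCN and LUM, are all shared. Of the unshared markers, THY1 was called at 2 days only, as lower, and FBLN1 and FAP at 3 months only, as higher. The mean of the fibroblast markers was 9.84 to 9.91 in DMD KO and 9.00 to 9.35 in WT at 3 months. At 2 days it was 8.65 to 8.88 in DMD KO and 9.62 to 9.72 in WT. No fibroblast marker was dim in any group. Their part in the falls of MMP16, MMP19, CTSO and SERPINF1 at 2 days and in the rises at 3 months was not tested.

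**Figure D5:**
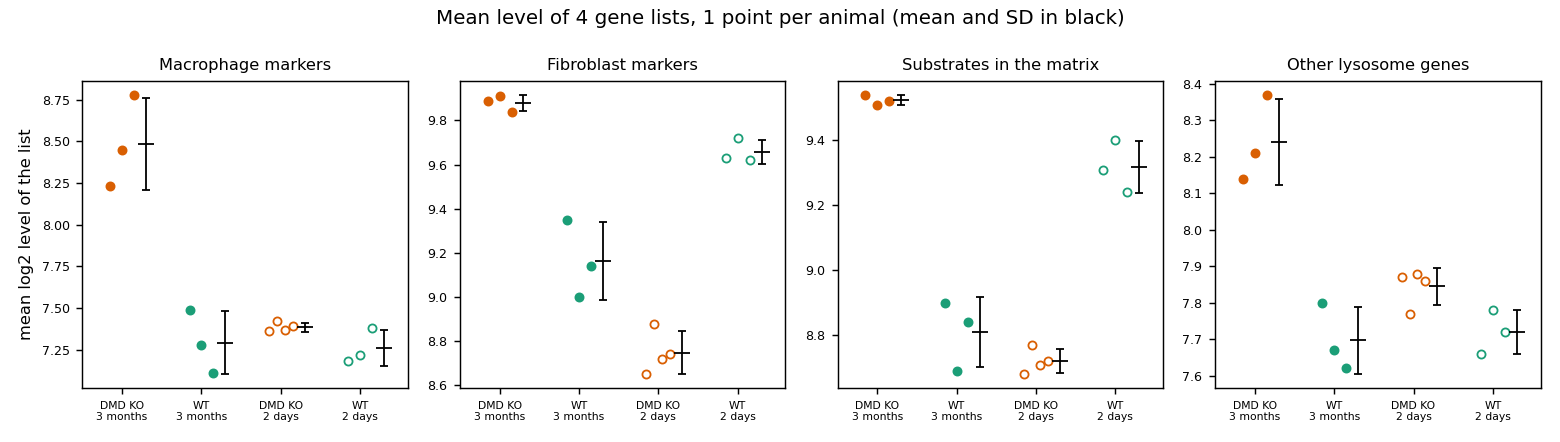
Mean log2 level of 4 gene lists, with 1 point per animal, filled at 3 months and open at 2 days, DMD KO in orange and WT in green, and the mean and SD of each group in black. Macrophage markers and other lysosome genes are higher in DMD KO than in WT at 3 months and lie close together at 2 days, while fibroblast markers and matrix substrates are higher in DMD KO at 3 months and lower in DMD KO at 2 days.

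Tendon markers (5 measured of 8) also moved at 2 days, with a mean of 6.61 to 6.93 in DMD KO and 7.67 to 9.08 in WT, and KERA, FMOD and CHAD fell. TNMD and KERA were dim in DMD KO piglets. At 3 months that mean was 7.88 to 8.50 in DMD KO and 7.33 to 8.09 in WT, and limma called none of the 5 (2 higher and 0 lower at an unadjusted p under 0.05). Their part in the falls at 2 days was not tested. Neutrophil markers (5 measured) and T and NK cell markers (10 measured) had no called member between genotypes at either age by limma (at an unadjusted p under 0.05, 0 for neutrophils at both ages, and 1 higher for T and NK cells at 3 months and 0 at 2 days). Of 4 mast cell markers, MS4A2, dim in WT, rose by 0.96 at 3 months (adjusted p = 0.0044). The list was split at that age, with 2 differences above 0 and 2 below, down to -0.45, and a median of -0.10. By limma 1 was higher and 1 lower at an unadjusted p under 0.05.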

How the data were processed

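RNA of biceps femoris was measured with 1 array per animal. The authors deposited 1 table of 21893 probe sets by 13 arrays. Per the submitters' processing notes, it was made using Affymetrix Power Tools. The version, summary method and normalization were not stated in those sources. The deposited values were taken as log2 intensities from their range (2.81 to 13.79). They were used unfiltered. Probe sets were named from the platform annotation: 11028 had an entry with 1 symbol, 418 an entry with several (143 of these repeat 1 symbol) and 10447 none.

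All probe sets entered 1 model in limma (version 3.58.1, R 4.3.3; lmFit, then eBayes; 4 groups, 9 residual degrees of freedom, two-sided), with Benjamini-Hochberg adjustment over all probe sets of a comparison. Replicates are different animals, and nothing ties animals of the same number across groups: same-numbered animals correlated from -0.351 to 0.309 in their deviations from the group means, with 1 of 6 pairs over 0.1. The number of arrays limits the precision. SE is limma's, SD the spread within a group.

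The members, gene lists and tests were chosen with earlier results of these data known. Values in every array are given for genes called between genotypes or in the interaction and for a set of well-known members. Alternatives were the groups of a comparison alone, trend and robust eBayes, quantile normalization, median centring, a filter on dim probe sets, array weights, a replicate block, the mean of all probe sets of a gene, and leaving out each array. Of the entries with several symbols, the 2 in these families repeat 1 symbol (ADAMTS5 and SERPINA11). They are given beside the 66 and enter no count, a choice made after the data were seen, and no sequence or coordinate is given.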

Additional observations from a re-analysis of the deposited data

Results flagged for a closer look

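The genotype difference itself differed between the ages for 11 genes (limma interaction, the difference at 3 months minus that at 2 days, adjusted p under 0.05). Its size was 2.32 for CTSH, 2.29 for CTSO, 1.97 for MMP16, 1.48 for CTSS, 1.44 for CTSK, 1.25 for ADAMTS6, 1.17 for SERPINF1, 0.83 for MMP19, 0.76 for SERPING1, 0.63 for the dim ADAM7 and 0.60 for ADAMTS12, all positive.

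In the group of 4 DMD KO piglets at 2 days, 3 genes had an array far from the others, and the lowest array differed each time. ADAM19 read 7.58 on replicate 3 and 7.73 to 7.75 on the others, ADAMTS7 read 7.46 on replicate 4 and 7.84 on the others, and SERPINA6 read 7.19 on replicate 2 and 7.41 to 7.44 on the others. With 66 genes examined at a rate of about 5% by chance, 3 is no excess. Of these 3 genes, ADAM19 enters a called difference, that with age in DMD KO.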

How the results depend on the processing

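Of the 52 differences called among the 66 genes in the 5 comparisons, none changed sign under the alternatives run for it (up to 21), 26 passed under each of those and 32 under each but the replicate block. The filter on dim probe sets removed ADAM28 and MMP27, and the replicate block lies within ages and could not be fitted for the age comparisons, which hold 11 of the 26. Those 32 include CTSH, CTSS, CTSO, CTSK, CTSL, MMP2, ADAM17, ADAM28, ADAMTS6 and SERPING1 at 3 months and CTSV, CTSO, MMP19 and SERPINF1 at 2 days. A further 49 differences were called under an alternative only. Leaving out 1 array gave 4 to 8 called genes at 2 days, 10 to 21 at 3 months, 0 to 3 with age in WT, 12 to 21 with age in DMD KO and 8 to 12 in the interaction, against 6, 17, 2, 16 and 11 with all arrays. The share of all probe sets called in these fits ran from 5.22% to 14.7% at 2 days and from 3.21% to 9.3% at 3 months. It ran from 1.68% to 3.46% with age in WT, 5.39% to 10.5% with age in DMD KO and 3.6% to 5.78% in the interaction. Array weights, whose estimate stopped before converging, gave 17 at 2 days (25.8% of the 66, against 24.8% of all probe sets), 21 at 3 months (31.8% against 15.6%), 14 with age in WT (21.2% against 11.7%), 24 with age in DMD KO (36.4% against 17.1%) and 19 in the interaction (28.8% against 12.6%). The replicate block, with 4 residual degrees of freedom, gave 2 at 2 days (3.03% of the 66, against 2.15% of all probe sets), 10 at 3 months (15.2% against 2.67%) and 4 in the interaction (6.06% against 1.86%). The fit on the groups compared alone gave 5 at 2 days (7.58% against 5.82%) and 12 at 3 months (11 higher and 1 lower, 18.2% against 4%). With age it gave 0 in WT (0% against 0.183%) and 22 in DMD KO (33.3% against 11.4%). Quantile normalization gave 4 with age in WT (6.06% against 4.09%). The cause of these shifts was not tested. Beside the results, either the single arrays that end a call are named or the number of such fits is given. For the dim genes, 16 of the 66, no fold is given.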

Other observations

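Within the 2-day groups, several genes varied more among WT piglets than among DMD KO piglets. ADAM9 had an SD of 0.08 in DMD KO (n = 4) and 0.57 in WT (n = 3), CTSZ 0.05 in DMD KO and 0.43 in WT, MMP16 0.21 in DMD KO and 0.64 in WT, and CTSC 0.24 in DMD KO and 0.58 in WT. In each of these the WT replicate 3 lay farthest from its group, below it for ADAM9, MMP16 and CTSC and above it for CTSZ. That array as a whole stood apart, with the lowest mean r to the other arrays (0.918). Its 95th percentile over all probe sets was 9.21, against 9.59 to 9.76 on the other 2-day arrays. The spreads of these genes, and the part of this array in them, were not tested.

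ADAMTS20 was the gene whose call with age turned on the choice of probe set. Its brighter probe set differed between 3 months and 2 days by -1.02 in DMD KO (limma, adjusted p = 0.0564) and -1.08 in WT (adjusted p = 0.104), and its other probe set by -1.38 in DMD KO (adjusted p = 0.0176) and -1.40 in WT (adjusted p = 0.049). The interaction was near 0 on both, at 0.06 and 0.02.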
